A study of Mus musculus with 8 samples.

Results

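The alarmins are cytokines that epithelial cells store or make when they are damaged or stressed, and the interleukin-1 family holds several of them. Il1a and Il1b encode agonists of the interleukin-1 receptor, Il1rn encodes the secreted antagonist of that receptor, and Il1r2 encodes a decoy receptor that binds ligand without signalling. Il36a and Il36g encode agonists of the interleukin-36 receptor, Il18 encodes an inflammasome-processed cytokine, and Il33 encodes a nuclear alarmin read by type 2 immune cells. Tslp, an epithelial cytokine that acts on dendritic cells, and Il24, a member of the interleukin-20 group that signals back to epithelium, lie outside the family by sequence but are used in the same tissues.

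These 10 genes, of 32285 in the count tables, were taken by symbol and described in the tongue tissue of mice 15 days after transgene induction. Il36a and Il36g stand in the tables under the older symbols Il1f6 and Il1f9. All mice carried Krt14-CreERT, LSL-rtTA and, by the study's methods, a tetON H2B-GFP reporter, and received tamoxifen into the tongue and doxycycline chow. Adult littermates with no further transgene formed the control group N. Group E added tetON_E6-E7, which encodes the papillomavirus oncoproteins that inactivate p53 and Rb, group Y added tetON_YAP1S127A, a YAP1 allele that escapes Hippo pathway inhibition, and group EY carried both. Every cell of these mice carried the alleles, and the Krt14 promoter, active in basal epithelium, drove the Cre that permits their expression; whether immune cells expressed them was not measured. Each group had 2 libraries, called N1 to EY2 below, from separately labelled animals; the title of N2 holds 2 animal numbers. Cells had been sorted for viability only. The count tables hold mouse genes only, so the level of each transgene was not analysed here. Paired values below give library 1 of a group before library 2.

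The single-cell libraries held 2916 to 8139 cells and 46483469 to 102427359 unique molecular identifiers (UMIs) each, and 25199 of 42550 cells passed the study's limits on genes, UMIs and mitochondrial share. Epithelial cells were those in which Krt5, Krt14, Krt15, Krt13 and Krt6a made up at least 0.5% of UMIs and Ptprc, the pan-leukocyte gene, was at 0, and numbered 12957, from 170 in EY1 to 4055 in E1. Myeloid cells numbered 4943, from 157 in N1 to 1565 in Y1. All 12 keratinocyte markers were detected in the epithelial cells of every library, summing to 25454 to 29485 counts per 1000000 UMIs (CPM), whereas the 9 myeloid markers summed to 19.98 to 240 CPM there against 9052 to 15274 CPM in the myeloid cells. The highest of those values in epithelial cells was that of EY1, the library with the fewest epithelial cells, and the other 7 libraries reached at most 48.8 CPM. Library pairs shared 2 to 19 cell barcodes. T cells, which do not make most of these cytokines, served as a guide to the level that free RNA adds to a droplet. They held fewer UMIs than epithelial cells in every library, with medians of 2974.5 against 13656 in N1. Their CPM is thus not an exact level of free RNA in epithelial cells.

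Of the members, 5 lie on chromosome 2 of GRCm38 by the GENCODE annotation. Il36g (24186476 to 24193568), Il36a (24215418 to 24225702) and Il1rn (24336853 to 24351494) sit on the plus strand within 165 kb, and Il1a (129299610 to 129309972) and Il1b (129364570 to 129371139) sit 54.6 kb apart on the minus strand. Il1r2 (40074079 to 40125231) and Il24 (130882074 to 130887454) are on chromosome 1, and Il24 is 19.5 kb from Il20. Il18 is on chromosome 9 (50554827 to 50581840), and Il33 is on chromosome 19 (29925114 to 29960718).

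RefSeq windows of 250 bases before the transcription start (GRCm38.p6) were matched for 7 members with 10 starts in all, and those with a match to a listed motif are shown because their genes passed a test in a comparison below. The motifs were TEAD (GGAATG), the DNA contact of YAP's partner factors, AP-1 (TGANTCA), NF-kB and a kappaB variant (GGGANTTCC), read on both strands. Among all 32851 windows, 12.6% held the TEAD letters, 6.75% the AP-1 letters, 1.41% the NF-kB letters and 1.43% the kappaB variant. Capitals mark the matches. They are AP-1 in the Il1a window and at the first Il1rn start, NF-kB and then TEAD at the third Il1rn start, and TEAD at both Il33 starts. The windows of Il1b, Il1r2, Il36g, Il18 and the second Il1rn start held none of these letters.
Il1a, chr2:129309973-129310222, minus strand: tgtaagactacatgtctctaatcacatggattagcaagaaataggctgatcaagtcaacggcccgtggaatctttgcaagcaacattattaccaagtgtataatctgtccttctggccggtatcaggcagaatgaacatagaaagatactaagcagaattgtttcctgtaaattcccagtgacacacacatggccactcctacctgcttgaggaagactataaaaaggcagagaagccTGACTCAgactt
Il1rn start 1, chr2:24336610-24336859, plus strand: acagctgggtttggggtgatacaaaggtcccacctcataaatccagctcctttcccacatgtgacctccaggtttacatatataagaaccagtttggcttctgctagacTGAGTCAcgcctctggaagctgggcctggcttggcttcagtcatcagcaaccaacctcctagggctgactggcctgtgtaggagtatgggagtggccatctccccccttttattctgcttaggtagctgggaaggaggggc
Il1rn start 3, chr2:24345121-24345370, plus strand: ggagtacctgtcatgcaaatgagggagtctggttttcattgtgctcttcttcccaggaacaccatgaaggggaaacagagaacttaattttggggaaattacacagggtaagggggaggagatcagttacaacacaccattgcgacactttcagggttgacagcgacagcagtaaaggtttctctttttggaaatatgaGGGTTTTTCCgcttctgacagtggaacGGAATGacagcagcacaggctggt
Il33 start 1, chr19:29924863-29925112, plus strand: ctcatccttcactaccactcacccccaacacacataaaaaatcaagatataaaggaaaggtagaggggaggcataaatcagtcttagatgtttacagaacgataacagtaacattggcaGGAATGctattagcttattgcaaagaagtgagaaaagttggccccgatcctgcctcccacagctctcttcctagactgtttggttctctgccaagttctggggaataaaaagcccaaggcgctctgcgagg
Il33 start 2, chr19:29945540-29945789, plus strand: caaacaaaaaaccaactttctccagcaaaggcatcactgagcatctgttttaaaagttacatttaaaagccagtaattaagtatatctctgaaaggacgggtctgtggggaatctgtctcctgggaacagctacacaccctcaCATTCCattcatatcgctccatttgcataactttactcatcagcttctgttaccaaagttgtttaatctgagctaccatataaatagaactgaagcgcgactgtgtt

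In epithelial cells, Tslp rose with the YAP1 transgene. Il24 was high in the EY libraries, while its Y libraries overlapped those of N and E. The comparison of the 4 libraries with YAP1S127A against the 4 without it, adjusted for E6-E7, asks what YAP1 activation changes in the epithelium. Of the 10 members, 2 passed an adjusted p of 0.05 with edgeR's quasi-likelihood test, both higher, beside 8.98% of all 13555 genes tested, of which 5.26% were higher. In the fits of all genes the median log2 fold change was -0.03.

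Tslp measured 3.37 and 4.92 CPM in N, 4.33 and 2.56 CPM in E, 22.5 and 35.6 CPM in Y, and 59.5 and 29.0 CPM in EY. Every library with YAP1 lay above every library without it, which was true of 6.9% of genes with at least 10 UMIs. The means were 4.14 ± 1.09 CPM for N, 3.45 ± 1.25 for E, 29.1 ± 9.28 for Y and 44.2 ± 21.6 for EY (SD over 2 libraries). The YAP1 effect was 3.26 ± 0.34 (log2 fold change ± SE; edgeR, adjusted p = 0.00297). The T cells of these libraries held 0 to 1.36 CPM of Tslp except in Y2, where 1 cell accounted for nearly all of the UMIs. Single cells held a large part of the Tslp UMIs in some libraries. In EY1, 103 of 146 UMIs came from 1 of 17 cells with a UMI, and in Y1, Y2 and EY2 the top cell held 26.0%, 22.8% and 10.7%. With the top cell of every library left out, a comparison added after these values were seen, the YAP1 effect was 2.73 (edgeR, adjusted p = 0.00289), and it passed in all 8 fits that left out 1 library. After each cell was thinned to 2000 UMIs, Tslp was detected in 0.181% to 0.723% of epithelial cells of the libraries without YAP1 and in 2.10% to 3.55% of those with it.

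Il24 measured 0.14 and 1.03 CPM in N, 1.81 and 0.25 CPM in E, and 2.78 and 0.71 CPM in Y. In EY1 and EY2 it was at 42.8 and 53.8 CPM, above all 6 other libraries. The group mean in EY was 48.3 ± 7.80 CPM against 0.58 ± 0.63 CPM in N (SD over 2 libraries). Il24 UMIs were found in 31 of 170 epithelial cells of EY1 and 432 of 2027 of EY2, with top cells holding 21.9% and 3.31% of them. In contrast, Il24 UMIs were found in 6 and 1 cells of N1 and N2, 29 and 3 of E1 and E2, and 25 and 5 of Y1 and Y2. T cells held 1.43 and 4.07 CPM in EY1 and EY2. The fitted difference was 7.16 ± 1.13 between EY and N (log2 fold change ± SE; edgeR, adjusted p = 0.0124) and 5.39 ± 0.94 between EY and E (edgeR, adjusted p = 0.0178). Between EY and Y it was 4.79 ± 0.91, with an adjusted p of 0.0644 by edgeR and a call by DESeq2. Over the other settings and left-out libraries, the EY to Y difference ranged from 1.92 to 8.27. Between Y and N it was 2.37 ± 1.15 (edgeR, adjusted p = 0.475). The EY against N call was lost without N1 (5.58; edgeR, adjusted p = 0.0840) or EY2 (6.80; edgeR, adjusted p = 0.0781), and that for Tslp without N1 (edgeR, adjusted p = 0.0705). The YAP1 effect over both backgrounds was 4.43 ± 0.94 (edgeR, adjusted p = 0.0290), and this call was lost without N1, E1, E2, EY1 or EY2, with values of 3.82 to 4.53. E6-E7 moved Il24 by 3.83 ± 0.93 (edgeR, adjusted p = 0.215). This effect passed with a stricter epithelial gate (7.06 by edgeR, adjusted p = 0.0123) and without top cells (4.89 by edgeR, adjusted p = 0.0453). It also passed without the filter on low counts (3.80 by edgeR, adjusted p = 1.4e-12), but was 1.07 without upper limits on cells (edgeR, adjusted p = 0.650). Those limits left 170 of 481 epithelial cells in EY1, 2027 of 2462 in EY2, 1289 of 1897 in Y1 and 1001 of 1588 in Y2. In N1, N2, E1 and E2 they left 3447 of 3521, 415 of 741, 4055 of 4185 and 553 of 944. Their part in the Il24 result was not tested.

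**Figure D1:**
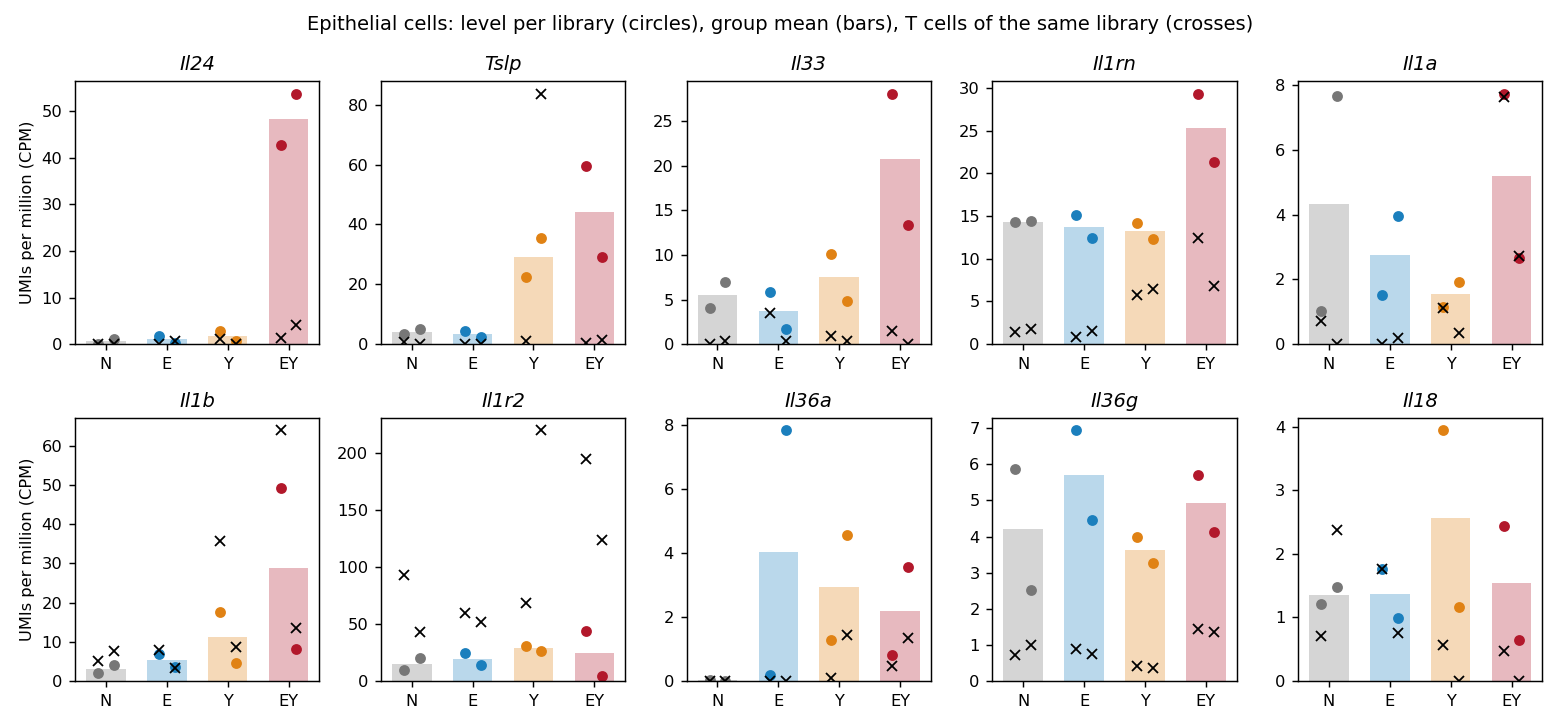
Level of the 10 members in epithelial cells, in CPM on linear axes that start at 0; circles are libraries, bars are means of 2 libraries in groups N, E, Y and EY, and crosses are T cells of the same libraries. Tslp circles are higher in all 4 libraries with YAP1, Il24 circles stand highest in EY at 42.8 and 53.8 CPM, and Il1b circles lie below the T cell crosses in 7 of 8 libraries.

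Il33 and Il1rn were highest in the EY epithelium. Il33 measured 4.03 and 6.97 CPM in N, 5.86 and 1.65 CPM in E, 10.1 and 4.88 CPM in Y, and 28.1 and 13.4 CPM in EY. Both EY libraries exceeded the other 6, while those of Y overlapped those of N and E. The share of all genes with both EY libraries above the other 6 was not counted, for Il33, Il24 or Il1rn. Il33 was 2.399 ± 0.667 higher in EY than in E (log2 fold change ± SE; edgeR, adjusted p = 0.0488), a call that was lost when any 1 library was left out, with adjusted p from 0.0575 to 0.171. Against N the difference was 1.89 ± 0.67 (edgeR, adjusted p = 0.0811), and the YAP1 effect was 1.45 ± 0.57 (edgeR, adjusted p = 0.128).

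Il1rn measured 14.2 and 14.4 CPM in N, 15.1 and 12.4 CPM in E, 14.2 and 12.3 CPM in Y, and 29.3 and 21.4 CPM in EY. The 6 libraries of N, E and Y lay within 12.3 to 15.1 CPM, and both EY libraries lay above them. The antagonist was 0.81 ± 0.21 higher in EY than in N (log2 fold change ± SE; edgeR, adjusted p = 0.0377) and 0.94 ± 0.21 higher than in E (edgeR, adjusted p = 0.0295). With epithelial cells restricted to those with keratins at 2% of UMIs and none of 6 immune genes, these differences were 0.48 and 0.42, with adjusted p of 0.392 and 0.471 by edgeR. The EY against N call was also lost when any 1 library was left out, with values of 0.66 to 1.004. Myeloid markers summed to 240 and 37.4 CPM in the epithelial cells of EY1 and EY2, T cells of these libraries held 12.4 and 6.79 CPM of Il1rn, and the part of myeloid RNA in the result was not tested.

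Of the 10 members, 3 were called between EY and N, all higher, beside 18.8% of all genes (9.31% higher), and 4 between EY and E, all higher, beside 16.4% (7.97% higher). Without E2 or EY2 no member was called between EY and E, without E1 only Tslp was, and Il1rn was also lost without N1 or N2. None was called between Y and N (0.457% of genes), where Tslp came closest at 2.84 ± 0.44 (log2 fold change ± SE; edgeR, adjusted p = 0.0517). None was called between EY and Y (0.0443% of genes). At an unadjusted p under 0.05 by edgeR, Il36a and Tslp passed between Y and N and Il24 and Il1rn between EY and Y, and DESeq2 called 2 members in each comparison, the same pairs. E6-E7 alone called no member by edgeR against N (0.243% of genes) or as an effect over both backgrounds (0.406%). There, Il36a and Il24 respectively passed at an unadjusted p, and DESeq2 called 1 member (Il36a) and 0. Whether the response to YAP1 differed with E6-E7 was tested directly as an interaction, which called no gene by edgeR. For the interaction, 1562 genes and 2 members (Il36a and Il1rn) passed at an unadjusted p under 0.05, and DESeq2 called 89 genes and no member. The interaction was 3.02 ± 1.52 for Il24 and 0.82 ± 0.59 for Tslp (log2 ± SE; edgeR, adjusted p = 0.477 and 0.606), so that a larger YAP1 response in the presence of E6-E7 was not resolved for either gene with 2 libraries per group.

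The other members were low in the epithelium. Il1b ranged from 1.95 CPM in N1 to 49.3 CPM in EY1. It was above the T cells of the same library only in E2, at 3.63 against 3.39 CPM. The part of free RNA in its epithelial counts was not tested. The YAP1 effect on epithelial Il1b was 2.19 ± 0.63 (log2 fold change ± SE; edgeR, adjusted p = 0.0620). Il1r2 ranged from 4.70 CPM in EY2 to 44.0 CPM in EY1, and was below the T cells of the same library in all 8. T cells, some of which express this decoy receptor, held 43.2 to 220 CPM. The epithelial extremes were both in EY libraries. Il36g, at 2.52 to 6.94 CPM in epithelial cells, was above the 0.36 to 1.43 CPM of T cells in every library and passed in no comparison between groups.

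Il36a was nearly silent in control epithelium, with 2 UMIs in N1 and 0 in N2, and was scattered over single cells elsewhere. It was at 0.20 and 7.85 CPM in E1 and E2, 1.29 and 4.58 CPM in Y1 and Y2, and 0.81 and 3.57 CPM in EY1 and EY2. In E2, 89 of 95 UMIs came from 1 cell, and in EY2 50 of 132 did. Summed over libraries, the ratio of EY to N was 99.4 (95% interval 27.0 to 829, counting error only), but the fitted difference did not pass (edgeR, adjusted p = 0.0812). Il1a was at 1.02 to 7.74 CPM and Il18 at 0.65 to 3.95 CPM in epithelial cells. The highest Il1a levels were in N2, where 26 of 67 UMIs came from 1 cell, and EY1, where the T cells held a similar 7.64 CPM.

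Within the epithelium, basal cells were compared with differentiated cells, the latter being those with more Krt13 and Krt4 than Krt5 and Krt14 UMIs. In a comparison paired by library over 7 libraries (EY1 had only 17 differentiated cells), 3 of 8 members tested were called, 2 higher and 1 lower in differentiated cells, beside 35.5% of genes (16.3% higher and 19.2% lower). Tslp fell by 1.95 on the log2 scale from basal to differentiated cells (SE 0.29; edgeR, adjusted p = 0.000402), and was lower in differentiated cells in 6 of 7 libraries. Its medians over these 7 libraries were a similar 4.75 and 4.65 CPM. The gap was widest in the YAP1 libraries. There, Tslp was at 25.3, 42.8 and 30.2 CPM in basal against 6.03, 4.86 and 4.65 CPM in differentiated cells of Y1, Y2 and EY2. Both E libraries were also lower in differentiated cells, at 0.82 to 2.15 CPM against 2.76 to 4.75 CPM in basal cells. The N libraries went in opposite directions. Il36g rose by 1.56 ± 0.23 (edgeR, adjusted p = 0.000333), from a median of 3.47 to 8.17 CPM, and was higher in differentiated cells in 7 of 7 libraries. Il33 rose by 1.13 ± 0.28 (edgeR, adjusted p = 0.00908), with medians of 5.07 and 8.07 CPM and the same direction in 5 of 7 libraries, and in EY2 it was at 12.2 CPM in basal and 37.2 CPM in differentiated cells. Il24 and Il36a held enough UMIs in too few libraries to be tested. In EY2, Il24 was at 55.9 CPM in basal and 10.5 CPM in differentiated cells.

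Genes with the largest ratio between EY cells with and without Il24, Tslp or Il33 UMIs are given here as a description of 2 libraries, chosen after their values were seen. Cells with Il24 had 787 against 53.2 CPM of Krt8 in EY1 and 91.5 against 16.8 CPM in EY2. Krt18, its partner in simple epithelium, was at 760.4 against 94.0 CPM and 160 against 49.5 CPM. The neutrophil chemoattractant Cxcl3 was at 544 against 39.3 CPM and 68.5 against 15.6 CPM. The granulocyte growth factor Csf3 was at 16.2 against 0.48 CPM and 28.5 against 2.33 CPM, with few UMIs behind the EY1 values. The 31 cells with Il24 in EY1 were shallower than the rest, with median totals of 9059 against 15975 UMIs. Those of EY2 were deeper, at 23234 against 17096 UMIs. The genes that stood out in cells with Il33 included Crct1 and Sprr1a, genes of the cornifying layer. Crct1 was at 2130 against 201 CPM in EY1 and 2239 against 312 CPM in EY2. These Il33 cells also had more Il1rn, at 51.6 against 26.3 CPM in EY1 and 61.0 against 16.1 CPM in EY2. Cells with Tslp had more of the tight-junction genes Cldn1 and Cldn3, and Cldn1 was at 185 against 15.4 CPM in EY1 and 37.0 against 10.3 CPM in EY2. Their Il24 level was 78.4 against 37.5 CPM in EY1 and 107 against 44.3 CPM in EY2. In EY1, however, the cells with Tslp numbered only 17 and were deeper, with median totals of 20728 against 11510 UMIs. Taken the other way, cells with Il24 had less Tslp in EY1, at 16.2 against 67.1 CPM. In EY2 they had more, at 43.0 against 24.1 CPM.

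In myeloid cells, the interleukin-1 agonists, the antagonist and the decoy receptor rose together with the YAP1 transgene that the epithelium carried. Of 7 members with enough UMIs to be tested, 5 were called in the YAP1 comparison, all higher, beside 4.15% of 10911 genes, of which 2.69% were higher. Among the 5 was Il36a, which met the filter on low counts only through EY1 and EY2, where it was highest. Its calls here and in EY against N thus add no support. In EY against N, 5 were called, all higher, beside 18.3% (10.1% higher). Left-out libraries changed this: all 5 YAP1 calls were lost without N1, E1, E2, Y1, EY1 or EY2 and with myeloid cells gated at keratins under 2%, and that of Il36a also without N2. With cells of at least 200 genes, 1 of the 5 remained, Il1a. The EY against N calls were lost without N1 for Il1a, Il1b, Il1rn and Il36a, without N2 for Il1rn and Il36a, and without EY1 for Il1b, Il1rn and Il36a. No cell type correction enters these sums, so a change in the mix of myeloid cells and a change within a cell type cannot be told apart here.

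Il1a measured 38.8 and 32.1 CPM in N, 38.2 and 47.6 CPM in E, 202 and 64.9 CPM in Y, and 648 and 463 CPM in EY. All 4 YAP1 libraries exceeded the others, as 2.34% of genes with at least 10 UMIs did. The YAP1 effect was 3.22 ± 0.59 (log2 fold change ± SE; edgeR, adjusted p = 0.0352), and the difference between EY and N was 4.63 ± 0.57 (edgeR, adjusted p = 0.00870).

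Il1r2 measured 173 and 273 CPM in N, 193 and 198 CPM in E, 547 and 609 CPM in Y, and 1079 and 1329 CPM in EY. The groups without YAP1 again lay below all libraries with it. The YAP1 effect on this decoy receptor was 2.37 ± 0.39 (log2 fold change ± SE; edgeR, adjusted p = 0.0307), and EY exceeded N by 3.05 ± 0.27 (edgeR, adjusted p = 0.00689), a call kept in all 8 fits that left out 1 library.

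Il1b measured 2102 and 3179 CPM in N, 2888 and 3629.9 CPM in E, 5124 and 3628 CPM in Y, and 6818 and 5267 CPM in EY. The Y and E ranges overlapped, with Y2 just below E2. Its YAP1 effect was 1.19 ± 0.27 (log2 fold change ± SE; edgeR, adjusted p = 0.0479). Il1rn measured 195 and 200.4 CPM in N, 411 and 523 CPM in E, 704 and 430.1 CPM in Y, and 738 and 500.0 CPM in EY. Here the E libraries lay above N and overlapped Y and EY. The YAP1 effect on the antagonist was 1.35 ± 0.25 (edgeR, adjusted p = 0.0362), and EY exceeded N by 2.29 ± 0.34 (edgeR, adjusted p = 0.00919). E6-E7 called no member and no gene in myeloid cells by edgeR, with 5 members and 1878 genes at an unadjusted p under 0.05, and DESeq2 called 1 member and 316 genes.

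Il36a was at 0 UMIs in the myeloid cells of both N libraries and of E2, at 3 UMIs in E1, and at 34, 8, 53 and 16 UMIs in Y1, Y2, EY1 and EY2. With the N group set at a floor of 3 UMIs, the ratio of summed libraries was 8.12 for EY and 4.11 for Y. The lower limits of the intervals for these ratios, counting error only, were 6.43 and 3.20. T cells held 0.08 and 1.44 CPM in Y1 and Y2 and 0.48 and 1.36 CPM in EY1 and EY2. The myeloid cells of these 4 libraries held 2.11, 1.54, 3.70 and 4.73 CPM, so the Y2 level was close to that of its T cells. The YAP1 comparison called Il36a (edgeR, adjusted p = 0.0371), but it met the filter on low counts only through EY1 and EY2. Il36g measured 3.66 and 17.0 CPM in N, 0 and 49.5 CPM in E, 39.1 and 8.28 CPM in Y, and 156 and 69.8 CPM in EY, and did not pass (YAP1 effect 2.06 ± 0.99; edgeR, adjusted p = 0.230). Il18 stayed within 12.9 to 36.6 CPM in all libraries.

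**Figure D2:**
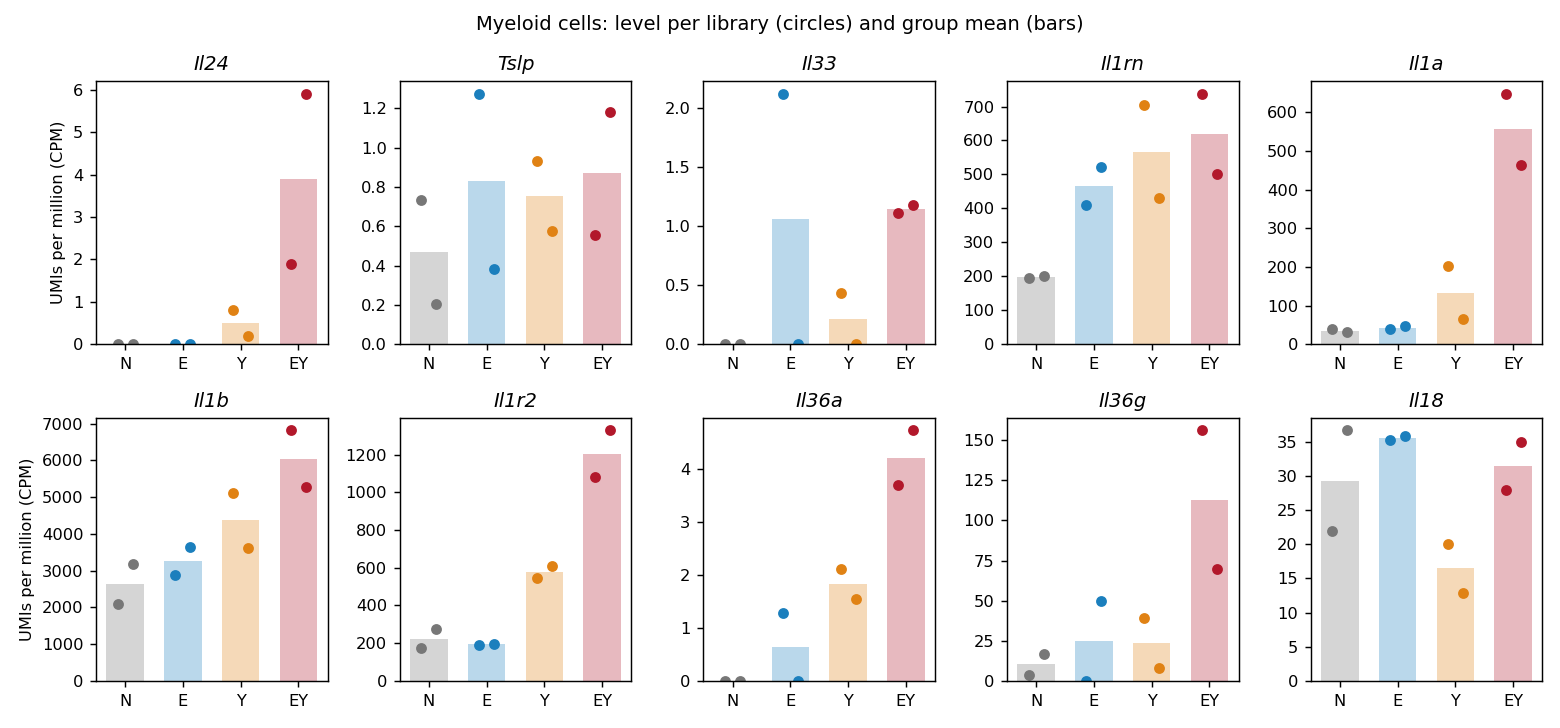
Level of the 10 members in myeloid cells, in CPM on linear axes that start at 0; circles are libraries and bars are means of 2 libraries in groups N, E, Y and EY. Il1a reaches 463 and 648 CPM in EY against 32.1 to 47.6 CPM in N and E, Il1r2 separates the YAP1 libraries from the others, and Tslp and Il33 stay under 2.2 CPM.

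Neutrophil markers moved with these values. The 10 neutrophil genes summed to 113 to 5428 CPM in the myeloid cells of N and E and to 3504 to 145492 CPM in those of Y and EY, and neutrophils numbered 0 to 25 in N and E libraries against 7 to 544 in Y and EY. In the 3332 monocytes and macrophages, gated without neutrophils, 1 of 7 members was called for the YAP1 effect, higher, beside 0.165% of 9677 genes (0.145% higher). It was Il1r2, which measured 60.9 and 151 CPM in N, 146 and 148 CPM in E, 511 and 569 CPM in Y, and 824 and 1168 CPM in EY. Its effect was 2.78 ± 0.31 (log2 fold change ± SE; edgeR, adjusted p = 0.0342), and the call was lost in 6 of 8 fits that left out 1 library (N1, E1, E2, Y1, EY1 or EY2), with values of 2.57 to 3.20 over all settings. Il1a was at 43.8 to 71.1 CPM in the 4 libraries without YAP1 there, at 193 and 70.1 CPM in Y1 and Y2, and at 851 and 616 CPM in EY1 and EY2, and its effect of 2.71 ± 0.70 did not pass (edgeR, adjusted p = 0.105). Il1rn and Il1b gave 0.96 ± 0.20 and 0.91 ± 0.26 (edgeR, adjusted p = 0.0769 and 0.131). Neutrophil genes remained in this gate at 103 to 3524 CPM in N and E and 1497 to 52106 CPM in Y and EY, and their part in these results was not tested. In Y2, where they were lowest of the YAP1 libraries, Il1r2 was at 569 CPM and Il1a was within the range of the libraries without YAP1.

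**Figure D3:**
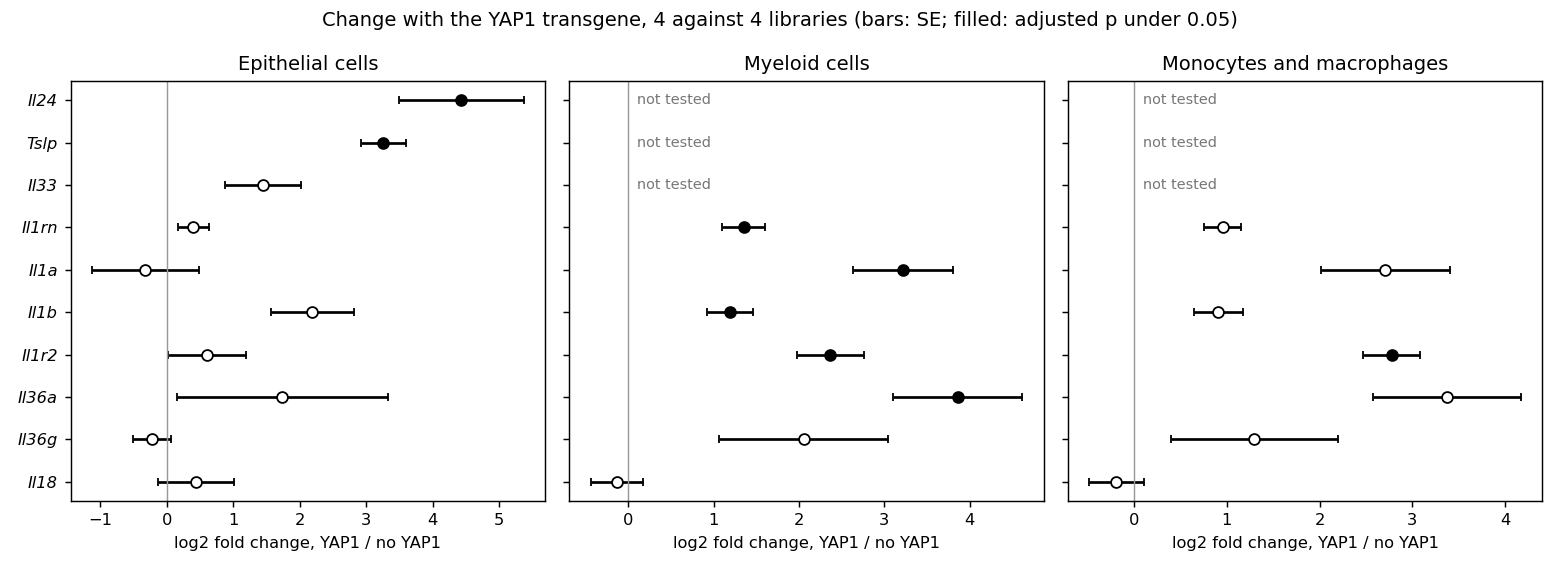
Log2 fold change with the YAP1 transgene, 4 libraries against 4, in epithelial cells, all myeloid cells, and monocytes and macrophages, with bars of 1 SE; filled circles have an adjusted p under 0.05 by edgeR, and members with too few UMIs are marked as not tested. Tslp and Il24 are filled in epithelial cells, Il1rn, Il1a, Il1b, Il1r2 and Il36a in myeloid cells, and Il1r2 alone in monocytes and macrophages.

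The members split by compartment. In a comparison paired by library, 8 of 9 members tested differed between myeloid and epithelial cells, 6 higher and 2 lower in myeloid cells, beside 74.7% of genes (37% higher and 37.7% lower). Il1b (9.42 ± 0.35), Il1a (5.61 ± 0.71), Il1rn (5.07 ± 0.27), Il1r2 (4.71 ± 0.55), Il18 (4.47 ± 0.37) and Il36g (2.83 ± 0.80) were higher in myeloid cells (log2 fold change ± SE; edgeR, adjusted p at most 0.00780). Tslp and Il33 were lower there, at -4.47 ± 0.42 and -3.71 ± 0.47 (edgeR, adjusted p = 2.4e-06 and 2.7e-05). Of Il33 UMIs in kept cells, 45.9% to 87.5% were in the epithelial gate of each library and 11.8% to 52.6% in cells outside the epithelial, myeloid and T cell gates. Of Il24 UMIs, 69.1% in EY1 and 95.8% in EY2 came from epithelial cells, and 17.8% and 0.96% from myeloid cells. Epithelial cells held 66.2% of Tslp UMIs in Y2 and 81.1% to 94.2% in the other 7 libraries. Myeloid cells held 42.1% to 59.7% of Il1a UMIs in N and E libraries and 81.6% to 94.3% in Y and EY libraries.

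Among myeloid cell types, medians were taken over the 5 libraries (N2, E2, Y1, EY1 and EY2) with at least 20 neutrophils. Il36g was higher in neutrophils than in monocytes and macrophages in 5 of 5 libraries, with medians of 312 and 40.4 CPM, and its median in Langerhans and dendritic cells was 0 CPM. Il1r2 was likewise higher in neutrophils in 5 of 5, with medians of 1063, 511 and 665 CPM in the same order. Il1a and Il1b had no single order. Il1a was at 8.24 CPM in neutrophils against 58.6 CPM in monocytes and macrophages of N2, at 132 against 58.8 CPM in E2 and 474 against 193 CPM in Y1, and at 378 against 851 CPM and 227 against 616 CPM in EY1 and EY2. Il1b was higher in neutrophils of N2, E2 and Y1 and lower in those of EY1 and EY2, at 5223 against 8047 CPM and 3157 against 6690.2 CPM. In Langerhans and dendritic cells of all 8 libraries Il1r2 ranged from 233 to 367 CPM in N and E and from 665 to 1022 CPM in Y and EY, without overlap. Il1b did not overlap there either, at 476 to 1463 CPM in N and E and 1569 to 4961 CPM in Y and EY. The share of all genes that separated in this gate was not counted. Neutrophil markers in this gate also separated the groups, at 11.6 to 33.5 CPM in N and E, 138 and 38.0 CPM in Y, and 5404 and 582 CPM in EY, and their part in these results was not tested.

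**Figure D4:**
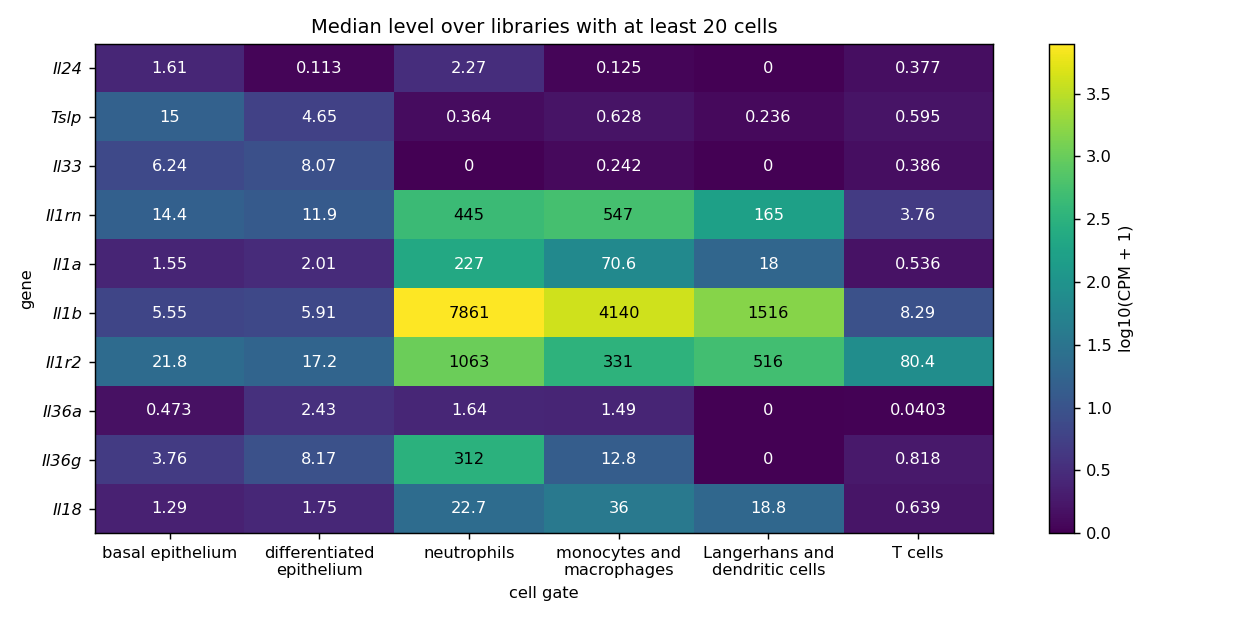
Median level of each member (rows) over the libraries with at least 20 cells in a gate (columns), in CPM, coloured by log10(CPM + 1) and printed in each cell. The columns rest on 5 libraries for neutrophils, 7 for differentiated cells and 8 for the others, so medians of different columns are not over the same libraries. Tslp and Il33 have their highest medians in the epithelial columns, Il36g peaks at 312 CPM in neutrophils, and Il1r2 is above 300 CPM in all myeloid columns.

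The pathway around the members was followed in 62 genes for other ligands and antagonists, receptors, processing enzymes and signal transducers. In epithelial cells 5 of 50 tested were called for the YAP1 effect, all higher, beside 8.98% of all genes, with a median of 0.26 over the list against -0.03 over all genes. They were Il1r1, the signalling receptor for Il1a and Il1b (1.26 ± 0.19), Il19, the neighbour and relative of Il24 (3.08 ± 0.61), the DNA sensor Aim2 (2.92 ± 0.50), and the brakes Tnfaip3 (1.14 ± 0.25) and Irak3 (1.24 ± 0.30), with adjusted p of 0.00886 to 0.0394 by edgeR. Il1r1 was at 6.69 to 11.2 CPM in the 4 libraries without YAP1 and at 13.4 to 29.7 CPM in the 4 with it. Il19 paralleled Il24, at 0 to 0.73 CPM in N, E and Y and at 5.30 and 8.43 CPM in EY1 and EY2, and was 6.005 ± 0.745 higher in EY than in N (log2 fold change ± SE; edgeR, adjusted p = 0.00839). Il20rb, a chain of the receptor that reads Il24 and Il19, was lower in EY than in E, at -1.79 ± 0.42 (edgeR, adjusted p = 0.0319). E6-E7 called 1 of 50, beside 0.406% of all genes. It was Il18bp, the soluble inhibitor of Il18, at 2.33 ± 0.35 (edgeR, adjusted p = 0.0381).

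Between EY and N, 7 of 50 pathway genes were called in the epithelium, 5 higher and 2 lower, beside 18.8% of all genes. Pycard, the inflammasome adaptor, was among those lower, from 260.4 and 165 CPM in N1 and N2 to 95.7 and 80.2 CPM in EY1 and EY2 (-1.26 ± 0.26; edgeR, adjusted p = 0.0213). In myeloid cells no pathway gene of 44 was called by edgeR for the YAP1 effect, beside 4.15% of all genes, with 16 at an unadjusted p under 0.05 and 8 called by DESeq2. Between EY and N, 15 were called, 13 higher and 2 lower, beside 18.3% of all genes. The higher genes included Nfkbia (1.35 ± 0.22), Nfkbiz (1.46 ± 0.29) and Zc3h12a (1.02 ± 0.21), feedback genes of NF-kB signalling, Irak3 (2.35 ± 0.32), and Nlrp3, the inflammasome sensor (1.34 ± 0.33), with adjusted p of 0.00870 to 0.0309 by edgeR. Sigirr, an inhibitory receptor of the family, was lower at -1.97 ± 0.58 (edgeR, adjusted p = 0.0485).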

How the data were processed

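Tongue cell suspensions were profiled by 10x 3′ single-cell RNA-seq, and the labels and methods name different kit versions. The authors aligned reads with Cell Ranger to mm10 and deposited raw UMI counts per gene and cell. The limits on cells were 1000 to 5500 genes, a total of 30000 UMIs and a mitochondrial share of 7%. No doublet caller was run. Epithelial and myeloid gates used keratin genes and 9 of 10 listed myeloid genes. Counts were summed per library and gate, filtered with filterByExpr, scaled by TMM (factors 0.697 to 1.15 in myeloid cells) and tested with edgeR 4.0.16 (quasi-likelihood, Benjamini-Hochberg over all genes). CPM values are without TMM. In myeloid cells the factors were 0.697 and 0.753 in EY1 and EY2 and 1.02 to 1.15 in the other libraries. Fitted EY differences there thus lie above those of the CPM values. Compartments were compared with library as a block, and gates with under 20 cells were dropped. DESeq2 1.42.0, other scaling, filters, gates and leaving out libraries were alternatives. Scripts were tested on simulated data. Shares used cells thinned to 2000 UMIs. Intervals (Clopper-Pearson, 95%) and the floor of 3 counts cover counting error only. Libraries are separate animals, and p-values measure the spread between them. All 10 members are named, and of the 62 pathway genes only some of those called are given. The members and lists were chosen with earlier results of these data known.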

Additional observations from a re-analysis of the deposited data

Results flagged for a closer look

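Cells outside the epithelial, myeloid and T cell gates entered no comparison, yet several members stood above both N libraries there. In EY1 and EY2 these cells held Il1a at 286 and 53.8 CPM, Il1rn at 304 and 91.0 CPM, Il36g at 73.7 and 25.1 CPM, and Il24 at 9.28 and 25.9 CPM. Il1r2 was at 328 and 182 CPM in Y1 and Y2 and at 565 and 394 CPM in EY1 and EY2. Il36a was at 0.92 and 9.47 CPM in Y1 and Y2. The highest N values were 12.003 CPM for Il1a, 35.4 CPM for Il1rn, 66.2 CPM for Il1r2, 9.23 CPM for Il36g, and 0 CPM for Il24 and Il36a.

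In the T cells of Y2, Tslp was at 83.7 CPM against at most 0.71 CPM in N, and 230 of its 233 UMIs came from 1 cell.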

How the results depend on the processing

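The number of members called depended on the tool, the filter on low counts, the cell limits, the gates and single libraries. With DESeq2 the calls numbered 4 for the epithelial YAP1 effect, 6 for EY against N, 2 for Y against N, 1 for E against N, 2 for EY against Y, 1 for the myeloid E6-E7 effect and 5 for the YAP1 effect in monocytes and macrophages. Without the filter on low counts they numbered, in the epithelium, 4 for YAP1, 2 for E6-E7, 6 for EY against N, 6 for Y against N, 2 for E against N, 5 for EY against Y and 4 for the interaction. In the other gates that setting gave 7 for myeloid E6-E7, 8 for myeloid EY against N, 7 for monocytes and macrophages and 5 for differentiated against basal cells. Without upper limits on cells there were 5 for epithelial YAP1, 6 for EY against N, 3 for Y against N and 5 for differentiated against basal cells. The stricter epithelial gate gave 1 for E6-E7, 1 for Y against N and 1 for EY against Y, and leaving out top cells gave 1 for E6-E7. With cells of at least 200 genes the myeloid YAP1 effect had 1 call and differentiated against basal cells 5. With myeloid cells under 2% keratins there were 0 for myeloid YAP1, 2 for myeloid EY against N and 0 for monocytes and macrophages. The stricter gate reversed the YAP1 effect on epithelial Il1rn (-0.11) and the interaction for Tslp (-0.0454). The cause was not tested in any of these.

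Leaving out 1 library gave 1 to 2 calls for epithelial YAP1, 0 to 3 for EY against N, 0 to 1 for Y against N, 0 to 2 for EY against Y, 0 to 3 for EY against E, 0 to 6 for myeloid YAP1, 1 to 7 for myeloid EY against N and 0 to 4 for monocytes and macrophages. EY against N had none without N1, and EY against E none without E2 or EY2. An arm left with 1 library was assumed to vary like the others. Over all genes, calls for epithelial YAP1 ranged from 899 to 6131 under other settings and 324 to 1707 with 1 library left out, and for myeloid YAP1 from 0 to 2121 and 0 to 1415. No paired analysis was possible because replicate numbers only name libraries. With 170 epithelial cells in EY1 and 157 myeloid cells in N1, low members were not resolved there.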
